A study of Mus musculus with 32 samples.

Results

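Myostatin, the activins and the proteins that bind them were followed in quadriceps muscle of mice with and without collagen VI. The 10 genes were taken by name from the deposited expression tables, out of 53801 gene IDs: the ligand genes Mstn, Gdf11, Inhba and Inhbb, the follistatin family genes Fst, Fstl1 and Fstl3, and the receptor genes Acvr1b, Acvr2a and Acvr2b. Each name matched 1 gene ID. RNA was sequenced from 32 mice, 4 in each of 8 groups that combined 2 genotypes, 2 ages and 2 sexes. Wild-type (WT) mice were compared with mice homozygous for the knockout allele Col6a2 tm1(KOMP)Vlcg (Col6a2-/-), which removes the α2 chain of collagen VI, at 5 and 25 weeks of age. The allele came from a C57BL/6N strain, had been crossed to C57BL/6J for 5 generations, and both genotypes were born to heterozygous (Col6a2+/-) parents. No treatment was given, and the labels name no Cre driver or cell type to which the knockout was limited. RNA came from cryosections of whole frozen muscle, so every value is an average over all cell types of the tissue.

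Myostatin is a secreted ligand of the TGFβ superfamily that is made mainly by skeletal muscle fibres and limits muscle mass. Its precursor is cut by furin-type convertases and then by proteases of the BMP1/tolloid family, and the released dimer binds the type II receptors ACVR2B and ACVR2A, which recruit the type I receptors ACVR1B or TGFBR1 to phosphorylate SMAD2 and SMAD3. GDF11, a close relative, uses the same receptors. The activins, which are dimers of inhibin β subunits encoded by Inhba and Inhbb, share the type II receptors and ACVR1B. Follistatin and FSTL3 bind myostatin and activins and block them, whereas FSTL1, a secreted glycoprotein with a follistatin-like domain, is known mainly as a product of fibroblasts and other mesenchymal cells.

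The values are TPM (transcript abundance as a share of all transcripts, on a fixed total) as the authors computed them, and they are scaled for transcript length. Differences are on the log2(TPM + 1) scale from a limma model of all 32 libraries with 1 mean per group, Col6a2-/- minus WT and sexes weighted equally, with a standard error (SE). Such differences understate the change of genes with low TPM. A gene was called when its Benjamini-Hochberg adjusted p over the 12817 genes tested (at least 1 TPM in at least 4 libraries) was under 0.05, two-sided. Of the 10 genes, 7 passed this filter, and Inhba, Inhbb and Fstl3 did not. For Fst, Fstl1, Fstl3 and Acvr2b, which have several transcript models, coverage relative to FPKM was 0.598 to 0.735 (median over libraries) of the ratio shared by the largest set of genes in each library, 1807 to 2415 genes, so their TPM depends on how reads were split among transcripts. With values made from coverage, Fstl1 differed by 0.81 at both ages and Acvr2b by -0.40 at 5 weeks, and both were called.

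Col6a2 itself averaged 33.2 ± 11.3 TPM in WT at 5 weeks and 10.7 ± 2.79 TPM at 25 weeks (SD, n = 8), and the highest Col6a2-/- library had 0.171 TPM, so the genotype labels and the values did not conflict. Mitochondrial genes took 31.9% to 46.9% of TPM and Rn7s genes 20.8% to 30.5%, which leaves the minority of the scale to all other genes. The files give no read counts; the ratio of coverage to FPKM, a relative measure of depth, ran from 6.78 to 13.7. The second female Col6a2-/- library at 5 weeks stood apart, with 44.2% of TPM outside mitochondrial and Rn7s genes and 12877 genes at 1 TPM or more, both the highest of the 32. A fit without it, chosen after seeing the data, is given beside the 5-week differences of the tested genes of the 10 and of the pathway genes called, and beside the counts of marker genes. In that fit 15.2% of all genes were called higher at 5 weeks and 2.72% lower, in place of 23.2% and 2.14%. The fourth female Col6a2-/- library of that age lay the other way. Its 6 macrophage markers summed to 37.4 TPM, against 81.1 to 140.6 TPM in the rest of its group and 32.7 to 35.1 TPM in WT females. Its 8 fibroblast markers summed to 643.7 TPM, below the lowest WT library of that age (760.7 TPM). A fit without the fourth library was made only as 1 of those with each library left out. Most genes called at 5 weeks were higher in Col6a2-/-, and the median over all tested genes was itself shifted by 0.15 at 5 weeks and 0.08 at 25 weeks. Of genes called at 5 weeks 91.6% were higher, but 52.3% after scaling by median-of-ratios size factors and 45.8% after quantile normalization, both of which remove that shift. The sum of 9 myofibre markers was 18986 TPM or more in every library.

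At 5 weeks 4 of the 10 genes, all among the 7 tested, were called by genotype, 1 higher and 3 lower in Col6a2-/-. Among all tested genes 25.4% were called in either direction, 23.2% higher and 2.14% lower. Fstl1 RNA was higher, and RNA of Mstn and of the receptors Acvr1b and Acvr2b was lower. At 25 weeks only Fstl1 was called, higher, where 4.7% of all genes were called, 4.47% higher and 0.234% lower. These 4 genes are the ones on which the results below turn, and the stretch of genome just before the start of each is shown here because it is the sequence from which transcription of the gene is started.

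The windows are the bases of the RefSeq promoter table (mouse build GRCm38.p6) that lie before the first annotated start of the gene, 5′ to 3′ on the gene's own strand. Capitals mark matches to 3 short motifs that were searched on both strands: the E-box CANNTG, which myogenic bHLH factors bind, the Smad-binding letters CAGAC, and the letters TATAAA of the TATA box. On the opposite strand the Smad-binding letters read GTCTG. The motifs do not overlap each other in the matches shown. The windows are chr1:53061390-53061639 for Mstn, chr16:37776805-37776872 for Fstl1, chr15:101173822-101174066 for Acvr1b and chr9:119401928-119402117 for Acvr2b, all on the plus strand.
Mstn: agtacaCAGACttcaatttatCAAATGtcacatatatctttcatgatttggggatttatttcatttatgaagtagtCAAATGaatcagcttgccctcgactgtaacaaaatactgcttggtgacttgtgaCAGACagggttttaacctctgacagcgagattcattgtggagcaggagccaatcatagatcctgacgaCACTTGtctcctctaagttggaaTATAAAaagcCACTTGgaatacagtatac
Fstl1: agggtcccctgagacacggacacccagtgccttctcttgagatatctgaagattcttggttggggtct
Acvr1b: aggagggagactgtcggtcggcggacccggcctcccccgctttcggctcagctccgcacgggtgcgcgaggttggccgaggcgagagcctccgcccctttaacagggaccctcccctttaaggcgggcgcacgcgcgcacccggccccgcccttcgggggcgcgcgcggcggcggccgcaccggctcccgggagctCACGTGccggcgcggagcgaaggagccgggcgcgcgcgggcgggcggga
Acvr2b: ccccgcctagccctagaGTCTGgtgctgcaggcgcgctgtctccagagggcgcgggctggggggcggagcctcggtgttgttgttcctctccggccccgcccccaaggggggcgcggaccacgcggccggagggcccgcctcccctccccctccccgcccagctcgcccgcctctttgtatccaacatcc

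The Mstn window of 250 bases held 4 E-boxes, 2 Smad-binding matches and 1 TATA box. Of all windows of that length in the table, 66.2% held at least 1 E-box, 42.2% a Smad-binding match and 12.4% a TATA box. Its GC content was 38.4%, against a median of 52.4% over such windows. The receptor windows were GC-rich, with 78.8% for Acvr1b and 74.7% for Acvr2b. Acvr1b had 1 E-box in 245 bases, which 65.5% of windows of that length also had, and Acvr2b had 1 Smad-binding match on the other strand in 190 bases, found in 34.1% of such windows. The Fstl1 window, cut to 68 bases so that it ends before the first start, held none of the 3. A match is a description of the letters only. Of the 10 genes 9 had an entry in the table; Fst did not.

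**Figure D1:**
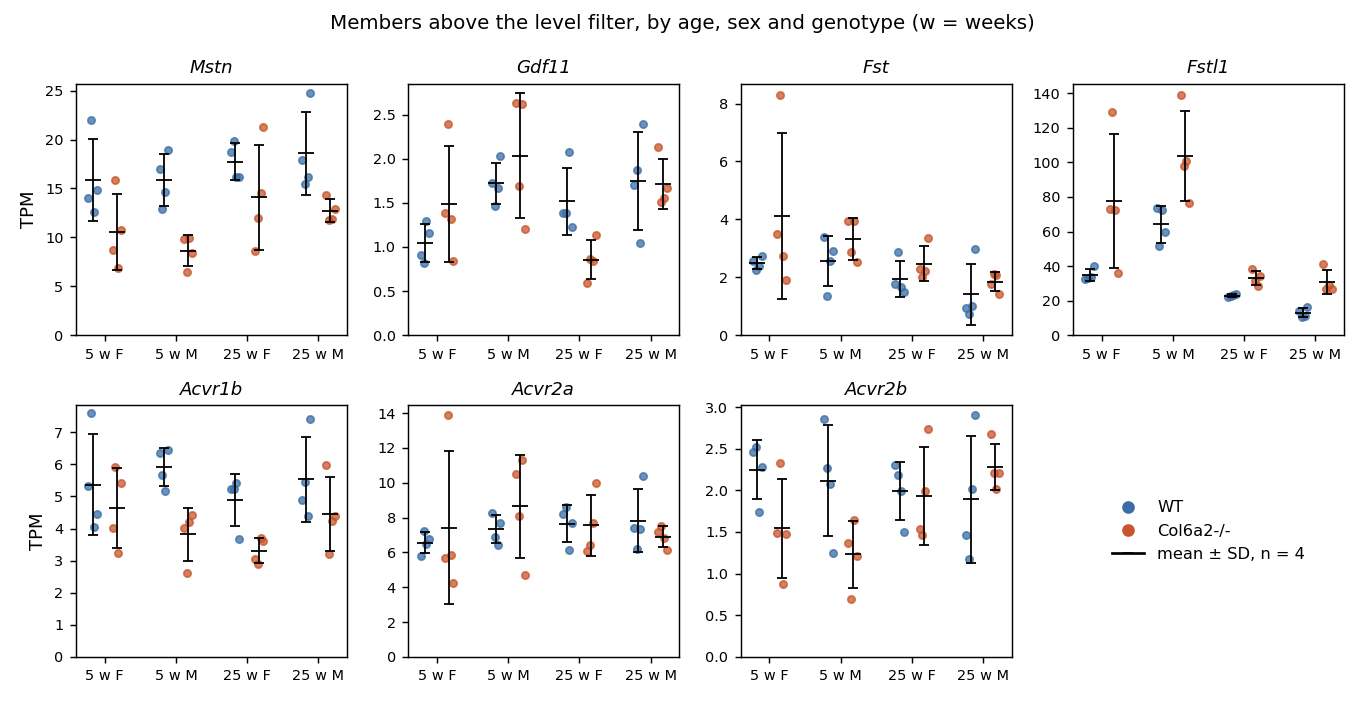
TPM of the 7 genes that passed the filter, in each of the 32 libraries (points), by age (w, weeks), sex (F, M) and genotype (blue, WT; orange, Col6a2-/-), with mean ± SD of 4 mice; each panel has its own linear axis from 0. Fstl1 was higher in Col6a2-/- in each pair of groups, and at 25 weeks the lowest Col6a2-/- library (26.6 TPM) lay above the highest WT library (23.7 TPM).

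Mstn (ENSMUSG00000026100, GRCm38 chromosome 1, 53061640 to 53068079, plus strand) is protein coding, and no other annotated gene overlaps it. At 14.3 TPM on average over 32 libraries it was the most abundant of the 4 ligand genes, higher than 83% of the tested genes. At 5 weeks the WT females had 14.0, 22.0, 12.6 and 14.8 TPM, and the Col6a2-/- females 8.70, 15.9, 6.87 and 10.8 TPM. The WT males had 17, 12.9, 14.6 and 18.9 TPM, and the Col6a2-/- males 9.83, 6.44, 9.92 and 8.41 TPM. Thus 7 of the 8 Col6a2-/- libraries at 5 weeks lay below every WT library of that age, and the exception was the second female library, the one that stands apart. The share of all genes with 7 of 8 libraries so placed was not computed at either age. In males the genotypes did not overlap, which was the case in this direction for 1.55% of all genes.

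Over both sexes Mstn averaged 15.8 ± 3.25 TPM in WT and 9.60 ± 2.95 TPM in Col6a2-/- at 5 weeks (SD, n = 8). It fell by 0.69 on the log2 scale (SE 0.15, limma adjusted p = 0.00168), or 0.83 below the median of all genes. Without the second female Col6a2-/- library the mean of Col6a2-/- was 8.70 TPM and the difference -0.79 (limma adjusted p = 0.000324). Within sexes the difference was -0.81 in males (limma adjusted p = 0.0246) and -0.57 in females (limma adjusted p = 0.0769). The genotype by sex term, the male minus the female difference averaged over both ages, was -0.18 (SE 0.22, limma adjusted p = 1.0). A difference between the sexes at 5 weeks alone was not tested. In females the difference was called without the second Col6a2-/- library (-0.77, limma adjusted p = 0.0392). The call in males was lost without the first or the fourth WT male or the second Col6a2-/- male of that age, with an adjusted p of at most 0.0963.

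At 25 weeks Mstn had 18.7, 19.9, 16.2 and 16.2 TPM in WT females and 17.9, 15.5, 16.2 and 24.8 TPM in WT males. The Col6a2-/- females had 8.57, 12.0, 14.5 and 21.3 TPM, and the Col6a2-/- males 14.3, 11.8, 11.9 and 12.9 TPM. Again 7 of the 8 Col6a2-/- libraries lay below every WT library, with the fourth female as the exception, and in males the genotypes did not overlap, as for 0.616% of all genes in this direction. The difference of -0.43 (SE 0.15) did not pass (limma adjusted p = 0.0995), with a 95% interval of -0.75 to -0.12. Mstn was called at 25 weeks when the same female library was left out (-0.54, limma adjusted p = 0.0375), and also with median-of-ratios scaling (-0.55, limma adjusted p = 0.00823) and quantile normalization (-0.50, limma adjusted p = 0.022). The difference at 25 weeks minus that at 5 weeks was 0.25 (SE 0.22, limma adjusted p = 0.943).

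Between 5 and 25 weeks the Col6a2-/- mean of Mstn went from 9.60 to 13.4 TPM, a rise of 0.45 (SE 0.15, limma adjusted p = 0.0238). The WT mean went from 15.8 to 18.2 TPM, a difference of 0.19 that was not called (limma adjusted p = 0.411). The call in Col6a2-/- was lost without the third female or the second male of the 5-week group or the fourth female of the 25-week group, with an adjusted p of at most 0.0669, and with no filter (limma adjusted p = 0.0503). By mean level the 8 groups ran from WT males at 25 weeks (18.6 TPM) through the WT groups to Col6a2-/- females and males at 25 weeks (14.1 and 12.7 TPM) and Col6a2-/- females and males at 5 weeks (10.6 and 8.65 TPM). Every group overlapped the next in this order. The 3 genes most like Mstn over the 32 libraries were Sar1b (r = 0.93), Ccdc91 (r = 0.91) and Pygm (r = 0.88), as Pearson correlations of log2(TPM + 1); these libraries share the TPM scale, and Pygm encodes muscle glycogen phosphorylase.

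In whole muscle, fewer cells of a type and less RNA per cell cannot be told apart. Beside the fall of Mstn at 5 weeks, 3 of 9 myofibre markers were called lower and none higher: Ckm (-0.33), Tnnt3 (-0.32) and Myh4, the myosin of the fastest fibres (-0.43, limma adjusted p = 0.0456). Of all genes 2.14% were called lower at that age. Over the 9 markers 5 differences were positive and 4 negative, with a median of 0.18 against 0.15 over all genes. The same 3 were called lower without the second female library, with -0.38, -0.38 and -0.56, beside 2.72% of all genes. None of the 9 was called at 25 weeks, where Myh4 differed by -0.29 (limma adjusted p = 0.311). The summed level of the 9 markers ran from 24194 to 30113 TPM in WT and from 18986 to 28967 TPM in Col6a2-/- at 5 weeks, and from 21136 to 27413 TPM and 19160 to 24873 TPM at 25 weeks. None was at 0 in any library. Markers of muscle regeneration moved too: 6 of 7 tested were called higher at 5 weeks, among them Myog (1.65), Mymk (1.84) and embryonic myosin Myh3 (2.37), and 1 of 7 (Myh3, 0.74) at 25 weeks. All 6 macrophage markers were called higher at both ages. Of all genes 23.2% were called higher at 5 weeks and 4.47% at 25 weeks. Without the second female library 5 of 7 regeneration markers and 5 of 6 macrophage markers were called higher at 5 weeks, beside 15.2% of all genes. The part of these cell types in the Mstn difference was not tested.

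**Figure D2:**
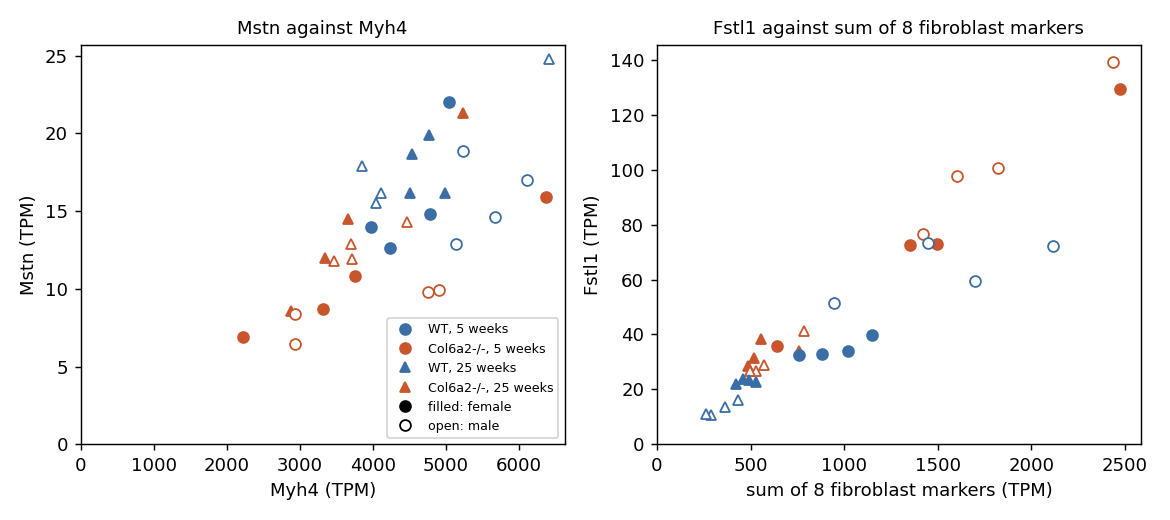
Each point is 1 of the 32 libraries (blue, WT; orange, Col6a2-/-; circles, 5 weeks; triangles, 25 weeks; filled, female; open, male), with linear TPM axes from 0. Left, Mstn against Myh4: Col6a2-/- males at 5 weeks have 6.44 to 9.92 TPM of Mstn, below all WT males. Right, Fstl1 against the sum of 8 fibroblast markers: both are highest at 5 weeks.

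Gdf11 (ENSMUSG00000025352, chromosome 10, 128882295 to 128891718, minus strand) was expressed at 1.52 TPM on average. At 5 weeks it had 0.821 to 2.03 TPM in WT and 0.846 to 2.63 TPM in Col6a2-/-, and the difference of 0.19 (SE 0.12) was not called (limma adjusted p = 0.232), nor was it without the second Col6a2-/- female (0.11, limma adjusted p = 0.525). At 25 weeks the 4 Col6a2-/- females had 0.591, 0.862, 0.840 and 1.13 TPM, below the WT females at 1.39, 1.38, 2.08 and 1.23 TPM. The male groups overlapped, with 1.51 to 2.13 TPM in Col6a2-/- and 1.04 to 2.39 TPM in WT. Non-overlap of this kind in 25-week females held for 0.999% of all genes. The 25-week difference over both sexes was -0.22 (limma adjusted p = 0.316), and it was called with median-of-ratios scaling (-0.29, limma adjusted p = 0.0432) and quantile normalization (-0.35, limma adjusted p = 0.0168). Neither the change of the difference with age (-0.41, limma adjusted p = 0.536) nor that with sex, averaged over both ages (0.16, limma adjusted p = 1.0), was called.

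Sex was called for Gdf11 alone among the 10 genes, where 3.05% of all genes were called. Over all genes 1.87% were called higher in males. Gdf11 was higher in males by 0.34 (SE 0.08, limma adjusted p = 0.0172). WT males had 1.72 ± 0.233 TPM and WT females 1.04 ± 0.217 TPM at 5 weeks (SD, n = 4), without overlap. The share of all genes without overlap between these WT groups was not computed. At 25 weeks the WT sexes overlapped, at 1.75 ± 0.556 and 1.52 ± 0.381 TPM. In Col6a2-/- the male and female means were 2.03 and 1.49 TPM at 5 weeks and 1.72 and 0.855 TPM at 25 weeks.

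The activin subunit genes were near the lower end of what these libraries measure. Inhba (ENSMUSG00000041324, chromosome 13, 16011851 to 16031621, plus strand), which encodes the βA subunit, ran from 0.118 to 0.662 TPM over the 32 libraries. Inhbb (ENSMUSG00000037035, chromosome 1, 119415465 to 119422248, minus strand), for the βB subunit, ran from 0.0922 to 0.492 TPM. Neither was at 0 in any library, and the genotypes overlapped for both genes in every pair of groups. In a limma fit without the filter the Inhba difference was 0.04 at 5 weeks and 0.11 at 25 weeks, and the Inhbb difference 0.08 and 0.06, with adjusted p from 0.625 to 0.797 and from 0.378 to 0.677. Exact permutation tests of 8 against 8 mice, two-sided, gave p = 0.605 and 0.13 for Inhba and p = 0.149 and 0.244 for Inhbb.

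**Figure D3:**
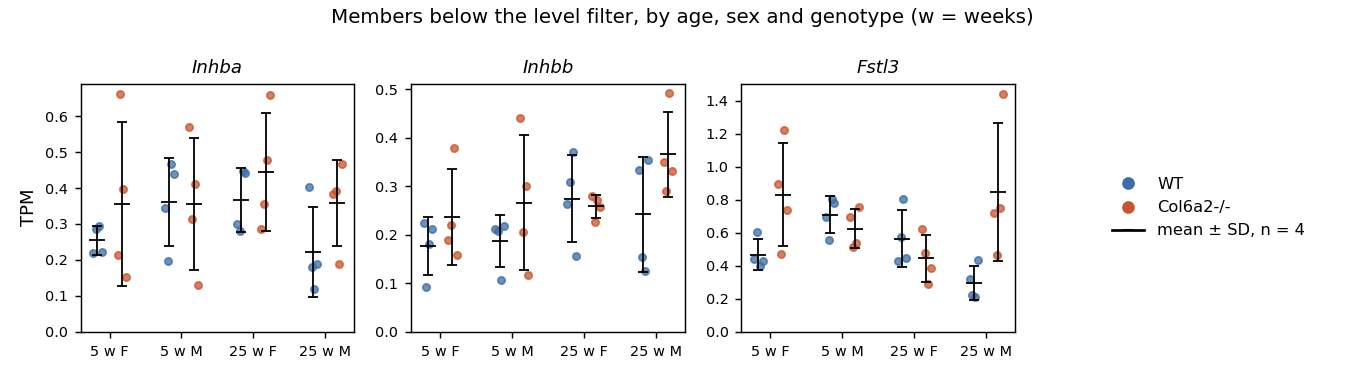
TPM of the 3 genes below the filter, in each library (points; blue, WT; orange, Col6a2-/-) with mean ± SD of 4 mice, by age (w, weeks) and sex. Fstl3 in 25-week males is the one pair of groups here that does not overlap, 0.213 to 0.432 TPM in WT against 0.465 to 1.44 TPM in Col6a2-/-.

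Fst (ENSMUSG00000021765, chromosome 13, 114452262 to 114458949, minus strand), which encodes follistatin, averaged 2.52 TPM over all libraries. At 5 weeks WT libraries had 1.36, 2.56 and 3.39 TPM as lowest, median and highest, and Col6a2-/- libraries 1.89, 3.19 and 8.29 TPM. The value of 8.29 TPM belonged to the second female library. The difference of 0.35 (SE 0.18, 95% interval -0.02 to 0.72) was not called (limma adjusted p = 0.153). Without that library the mean of Col6a2-/- was 3.06 TPM and the difference 0.18 (limma adjusted p = 0.436). Without the fourth female (1.89 TPM) the difference was called (0.46, limma adjusted p = 0.0398). At 25 weeks all 8 Col6a2-/- libraries, at 1.43 to 3.35 TPM, were above the WT mean of their sex, but WT libraries reached 2.98 TPM and the difference of 0.28 was not called (limma adjusted p = 0.412).

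With age Fst fell in Col6a2-/-, from 3.71 to 2.16 TPM (-0.51, SE 0.18, limma adjusted p = 0.0306), and in WT the difference was -0.44 (limma adjusted p = 0.0896), from 2.52 to 1.68 TPM. The call in Col6a2-/- was lost without the second female, the first male or the third male of the 5-week group, and without the second female, the third female or the fourth male of the 25-week group, with an adjusted p of at most 0.101. It was also lost with no filter, with median-of-ratios scaling, with quantile normalization and with values from coverage, where the smallest difference was -0.33.

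Fstl3 (ENSMUSG00000020325, chromosome 10, 79777272 to 79782630, plus strand), an antagonist of activins and myostatin, was at 0.597 TPM on average. In 25-week males it had 0.319, 0.223, 0.213 and 0.432 TPM in WT and 0.721, 0.465, 0.749 and 1.44 TPM in Col6a2-/-. The groups did not overlap there, as for 13.9% of all genes in this direction, and the limma fit without the filter gave 0.48 (adjusted p = 0.0747). In 25-week females the difference was -0.11, and over both sexes it was 0.19 at 25 weeks and 0.12 at 5 weeks, with exact permutation p = 0.143 and 0.198.

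Fstl1 (ENSMUSG00000022816, chromosome 16, 37776873 to 37836514, plus strand) was the most abundant of the 10 genes, at 47.5 TPM on average and above 95% of the tested genes. At 5 weeks the WT females had 32.7, 33.0, 33.9 and 39.9 TPM and the WT males 73.4, 51.5, 72.4 and 59.5 TPM. The Col6a2-/- females had 73.0, 129.3, 72.5 and 35.8 TPM and the Col6a2-/- males 139.2, 97.7, 100.8 and 76.6 TPM. In males the genotypes did not overlap, as for 9.32% of all genes in this direction, and in females only the fourth Col6a2-/- library lay among the WT values.

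Over both sexes Fstl1 averaged 49.5 ± 17.3 TPM in WT and 90.6 ± 33.5 TPM in Col6a2-/- at 5 weeks (SD, n = 8). It rose by 0.83 (SE 0.16, limma adjusted p = 0.000441), or 0.69 above the median of all genes, and all 8 Col6a2-/- libraries were above the WT mean of their sex. Without the second female library, the highest of its group, the difference was 0.69 (limma adjusted p = 0.000955). Within females it was 1.0 (limma adjusted p = 0.00535), or 0.71 without that library (limma adjusted p = 0.0496), and within males 0.66 (limma adjusted p = 0.0927). Genotype by sex, averaged over both ages, was 0.18 and was not called (limma adjusted p = 1.0). In that average opposite directions partly cancel: the difference was larger in females at 5 weeks and in males at 25 weeks. It does not test sex at 5 weeks alone.

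At 25 weeks Fstl1 had 22.1, 22.5, 23.3 and 23.7 TPM in WT females and 13.7, 10.7, 11.1 and 16.2 TPM in WT males. The Col6a2-/- females had 38.2, 31.4, 28.4 and 34.0 TPM and the Col6a2-/- males 41.2, 26.6, 29.0 and 26.8 TPM. All 8 Col6a2-/- libraries were above all 8 WT libraries, which was so for 0.663% of all genes in this direction; within females alone it was so for 3.8% and within males for 13.9%. The means were 17.9 ± 5.59 and 31.9 ± 5.43 TPM (SD, n = 8). Fstl1 rose by 0.84 (SE 0.16, limma adjusted p = 0.00294). An exact permutation test gave p = 0.000155, the smallest that 8 against 8 mice allow. Groups that do not overlap always give this value, so the test adds nothing to the non-overlap. At 5 weeks, where the genotypes overlapped, the exact permutation test gave p = 0.0112. That test exchanged libraries without regard to sex, so the difference between the sexes counts as spread in it and not in the limma fit. At 25 weeks Fstl1 was called in males (1.19, limma adjusted p = 0.0046) and not in females (0.50, limma adjusted p = 0.983). In that female comparison 0.0078% of all genes, 1 of 12817, were called and 621 had an unadjusted p under 0.05.

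Over both sexes the genotype difference of Fstl1 was about the same at both ages. The 25-week difference minus the 5-week difference was 0.01 (SE 0.23, 95% interval -0.455 to 0.481, limma adjusted p = 0.997). The sexes went opposite ways, from 1.0 at 5 weeks to 0.50 at 25 weeks in females and from 0.66 to 1.19 in males. A change with age within each sex was not tested. The level itself fell with age. Fstl1 fell by 1.41 in WT (SE 0.16, limma adjusted p = 3.11e-07) and by 1.39 in Col6a2-/- (SE 0.16, limma adjusted p = 1.82e-07). In the order of group means Col6a2-/- males (103.6 TPM) and females (77.7 TPM) at 5 weeks came first, then WT males (64.2 TPM) and females (34.9 TPM) at 5 weeks. Col6a2-/- females (33.0 TPM) and males (30.9 TPM) at 25 weeks and WT females (22.9 TPM) and males (13 TPM) at 25 weeks followed. WT males and females at 5 weeks did not overlap, nor did Col6a2-/- males and WT females, or WT females and males, at 25 weeks. The other neighbours overlapped. For such neighbours the share of all genes without overlap was not computed.

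The genes most like Fstl1 were Ppib (r = 0.99), the prolyl isomerase cyclophilin B of the secretory pathway, and the fibrillar collagen genes Col5a2 (r = 0.99) and Col3a1 (r = 0.98), over 32 libraries. Of 8 fibroblast markers, 4 were called higher at 5 weeks and 4 at 25 weeks, among them Pdgfra (0.32 and 0.58), Lum (0.75 and 0.64) and Col3a1 (1.04 and 1.25). Of all genes 23.2% were called higher at 5 weeks and 4.47% at 25 weeks. Without the second Col6a2-/- female 3 of 8 were called higher at 5 weeks, beside 15.2% of all genes. Lum was then at 0.63 and Col3a1 at 0.89, while Pdgfra was not called (0.22, limma adjusted p = 0.13). The summed level of the 8 markers ran from 760.7 to 2116 TPM in WT and from 643.7 to 2474 TPM in Col6a2-/- at 5 weeks, with medians of 1084 and 1550 TPM. At 25 weeks it ran from 264.9 to 531 TPM in WT and from 486.7 to 786.6 TPM in Col6a2-/-. No fibroblast marker was at 0. The part of fibroblast number in the Fstl1 difference was not tested.

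Acvr2b (ENSMUSG00000061393, chromosome 9, 119402118 to 119434995, plus strand) encodes the type II receptor with high affinity for myostatin, and averaged 1.91 TPM. At 5 weeks it had 2.46, 2.52, 1.74 and 2.28 TPM in WT females and 2.86, 2.27, 2.08 and 1.25 TPM in WT males. The Col6a2-/- females had 1.49, 2.33, 0.879 and 1.48 TPM and the Col6a2-/- males 1.37, 0.693, 1.65 and 1.21 TPM. The genotypes overlapped in both sexes, and 7 of 8 Col6a2-/- libraries were below the WT mean of their sex. The means were 2.18 ± 0.498 and 1.39 ± 0.499 TPM (SD, n = 8), and Acvr2b fell by 0.43 (SE 0.13, limma adjusted p = 0.0171). Without the second female library, the highest of its group, the difference was -0.49 (limma adjusted p = 0.00772).

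At 25 weeks the Acvr2b means were 1.95 ± 0.553 TPM in WT and 2.11 ± 0.465 TPM in Col6a2-/- (SD, n = 8), a difference of 0.08 (SE 0.13, limma adjusted p = 0.77; 95% interval -0.18 to 0.35) that turned to -0.04 with quantile normalization. The 25-week difference minus the 5-week difference was 0.51 (SE 0.18), the largest such value of the 7 tested genes by size, and was not called (unadjusted p = 0.00926, limma adjusted p = 0.405). From 5 to 25 weeks Acvr2b rose in Col6a2-/- by 0.39 (SE 0.13, limma adjusted p = 0.0198), and in WT it differed by -0.12 (limma adjusted p = 0.579). The call in Col6a2-/- was lost, at an adjusted p of at most 0.0518, without the third female or the second male of the 5-week group or the fourth female of the 25-week group. Those 3 libraries were the same ones on which the call of Mstn with age in Col6a2-/- turned.

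The antisense gene Gm47320 (chromosome 9, 119405108 to 119409016, minus strand) lies inside Acvr2b and shares 0 exon bases with it. Its level was 1.68 ± 0.322 TPM in WT and 0.674 ± 0.273 TPM in Col6a2-/- at 5 weeks (SD, n = 8), and 1.24 and 1.28 TPM at 25 weeks. It fell by 0.69 at 5 weeks (limma adjusted p = 6.7e-05), and its genotype by age term was called (0.71, limma adjusted p = 0.0354). Whether the authors' counting used strand is not given in the sources used here, so reads of the introns of Acvr2b and reads of Gm47320 cannot be told apart. The nearest in pattern to Acvr2b over 32 libraries were Osbpl6 (r = 0.77), Lsmem1 (r = 0.76) and Asb16 (r = 0.74).

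Acvr1b (ENSMUSG00000000532, chromosome 15, 101174067 to 101213684, plus strand) encodes the type I receptor ALK4, and averaged 4.74 TPM. At 5 weeks it had 5.34, 7.59, 4.06 and 4.46 TPM in WT females and 6.35, 5.68, 5.18 and 6.46 TPM in WT males. The Col6a2-/- females had 4.01, 5.93, 3.23 and 5.42 TPM and the Col6a2-/- males 4.02, 2.60, 4.21 and 4.43 TPM. Males did not overlap by genotype, as for 1.55% of all genes in this direction, while females did. The means were 5.64 ± 1.14 and 4.23 ± 1.08 TPM (SD, n = 8), and Acvr1b fell by 0.35 (SE 0.13, limma adjusted p = 0.0391). Without the second female library the difference was -0.41 (limma adjusted p = 0.0257).

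That call of Acvr1b was the least stable of the 4. It was lost when any of 9 of the 32 libraries was left out (at 5 weeks, WT female replicates 1 and 2, WT male replicates 1, 2 and 4, Col6a2-/- female replicates 1 and 3, and Col6a2-/- male replicates 1 and 2), with an adjusted p of at most 0.0994. It was also lost with no filter and with the 5-week libraries alone, at an adjusted p of at most 0.0779. At 25 weeks the Acvr1b difference was -0.35 as well (SE 0.13) and was not called (limma adjusted p = 0.103), with means of 5.21 ± 1.07 and 3.89 ± 1.01 TPM. It was called at 25 weeks with median-of-ratios scaling (-0.46, limma adjusted p = 0.00911) and quantile normalization (-0.45, limma adjusted p = 0.0155). The genes nearest in pattern were Jak2 (r = 0.84), Myoz1 (r = 0.83), which encodes a Z-disc protein of fast fibres, and Tef (r = 0.81).

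Acvr2a (ENSMUSG00000052155, chromosome 2, 48814109 to 48903269, plus strand), the other type II receptor gene, was the most abundant receptor gene of the 3, at 7.49 TPM on average. At 5 weeks WT libraries had 5.79, 6.84 and 8.26 TPM as lowest, median and highest, and Col6a2-/- libraries 4.23, 6.97 and 13.9 TPM. Thus Col6a2-/- libraries lay on both sides of the WT range, 3 above it and 3 below it. The difference of 0.10 (SE 0.16, 95% interval -0.23 to 0.43) was not called (limma adjusted p = 0.677), and it was -0.06 without the second female library, -0.08 with median-of-ratios scaling and -0.07 with quantile normalization. At 25 weeks it was -0.09 (limma adjusted p = 0.811). Acvr2a shares 446 exon bases at its end with Orc4, which runs on the other strand at 8.53 TPM on average, so its level is uncertain by the reads that belong to Orc4.

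**Figure D4:**
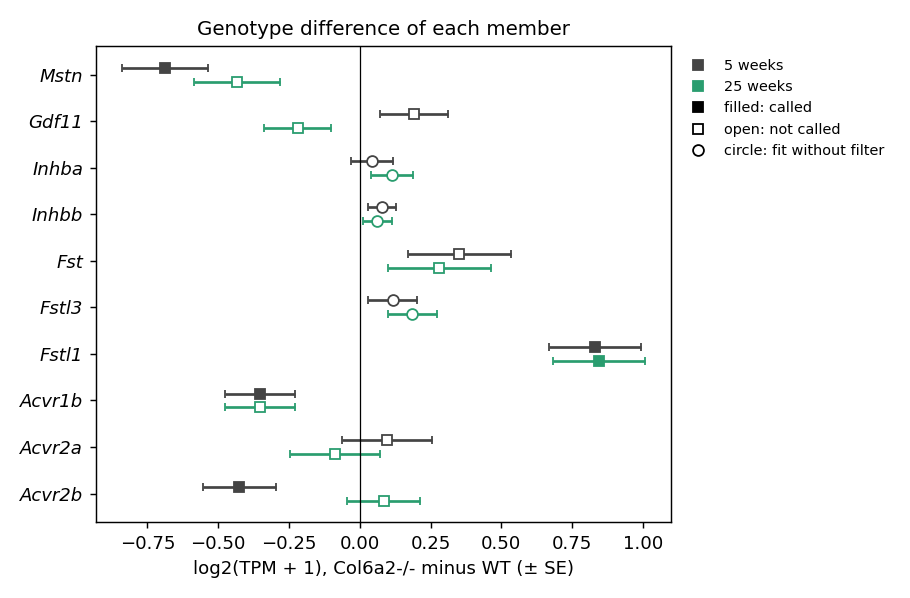
Genotype difference (Col6a2-/- minus WT, log2(TPM + 1)) of the 10 genes at 5 weeks (grey) and 25 weeks (green), with ± SE from the limma fit; filled symbols were called, circles come from the fit without the filter. With sexes weighted equally, Fstl1 has nearly the same difference at both ages (0.83 and 0.84), and Acvr2b is at -0.43 at 5 weeks and 0.08 at 25 weeks.

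Of the 10 genes only the 7 that passed the filter could be called. Among these 7, no genotype by age term and no genotype by sex term was called by limma. Of all genes 0.492% and 0.0156% were called for these terms, and 898 and 206 genes had an unadjusted p under 0.05. For genotype by sex, 206 of 12817 genes is below the share of 0.05 that chance alone gives, so an absent call there says little. Of the 10 genes, Acvr2b and Gdf11 (limma unadjusted p = 0.0209) met that unadjusted threshold for genotype by age. With age, 1 of the 10 was called in WT, Fstl1, where 19.8% of all genes were called and 15.3% were lower. In Col6a2-/- 4 were called, Mstn and Acvr2b higher and Fstl1 and Fst lower, where 34.2% of all genes were called, 5.41% higher and 28.8% lower. Within a single sex and age, limma called Fstl1 higher in 5-week females, where 12.9% of all genes were called and 12.3% were higher. It called Mstn lower in 5-week males (5.03% called, 0.484% lower), Fstl1 higher in 25-week males (3.03% called, 2.91% higher) and none of the 10 in 25-week females. The comparisons at each age with age itself share libraries, so their calls are not separate evidence.

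The wider pathway was read from a list of 29 further genes, of which 20 passed the filter. At 5 weeks 4 of the 20 were called higher and 2 lower, and the median difference of the 20 was 0.18, against 0.15 over all tested genes. At 25 weeks 1 was called higher and 0 lower, beside 4.47% and 0.234% of all genes, with a median of 0.15 against 0.08. The 6 of 20 called in either direction at 5 weeks stand beside 25.4% of all genes. Without the second Col6a2-/- female 2 of the 20 were called higher, Tgfbr1 and Pcsk5, and 2 lower.

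Among receptors, Tgfbr1, which encodes the type I receptor ALK5 used by TGFβ and myostatin, rose at 5 weeks from 6.38 ± 0.723 to 10.8 ± 3.27 TPM (SD, n = 8). Its difference was 0.63 (SE 0.12, limma adjusted p = 0.000258), with all 8 Col6a2-/- libraries above the WT mean of their sex. It was 0.53 without the second female library (limma adjusted p = 0.000475). At 25 weeks it was 0.07 (limma adjusted p = 0.79), and the genotype by age term was not called (-0.57, limma adjusted p = 0.175). The 3 other tested receptor genes of the list, Acvr1, Acvr1c and Tgfbr3, were not called at either age.

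Among the proteases that process the precursors, 3 of 5 tested were called higher at 5 weeks, beside 23.2% of all genes, and the median difference of the 5 was 0.28 against 0.15 over all genes. Pcsk5 went from 1.58 to 2.47 TPM (0.40, limma adjusted p = 0.0143), Pcsk6 from 6.87 to 8.66 TPM (0.28, limma adjusted p = 0.0323) and Bmp1 from 6.77 to 9.26 TPM (0.39, limma adjusted p = 0.024). Pcsk5 and Pcsk6 encode convertases, and BMP1 is a protease that also trims procollagens. Without the second Col6a2-/- female 1 of the 5 was called, Pcsk5 (0.29, limma adjusted p = 0.0421), while Pcsk6 (0.21) and Bmp1 (0.29) had limma adjusted p = 0.0954 and 0.0755. At 25 weeks Pcsk6 was called, from 5.65 to 7.56 TPM (0.37, limma adjusted p = 0.0237), while Pcsk5 (0.36) and Bmp1 (0.33) had limma adjusted p = 0.0792 and 0.136.

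Both genes of the list that fell at 5 weeks were below the WT mean of their sex in all 8 Col6a2-/- libraries. Wfikkn2, which encodes a secreted inhibitor of myostatin and GDF11, went from 1.05 ± 0.193 to 0.699 ± 0.178 TPM (-0.27, limma adjusted p = 0.0203), and at 25 weeks from 1.71 to 1.26 TPM (-0.26, limma adjusted p = 0.0699). Zfyve9, which encodes the SMAD anchor SARA, went from 11 ± 0.893 to 8.94 ± 1.60 TPM at 5 weeks (-0.29, limma adjusted p = 0.0135). Both were also called without the second female library, at -0.25 and -0.33 (limma adjusted p = 0.0433 and 0.00526). Smad2, Smad3 and Smad4, the signal carriers of the pathway, differed by 0.11, 0.05 and 0.09 at 5 weeks and were not called, nor was the inhibitory Smad7 (0.14, limma adjusted p = 0.103).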

How the data were processed

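Quadriceps RNA of 32 mice was measured by paired-end RNA sequencing of TruSeq libraries, per the labels' protocols, with a deposited table for each library. The tables hold 1 coverage value, 1 FPKM value and 1 TPM value per gene, all computed by the authors, per the file headers. TPM sums to the same total in each library, mitochondrial and Rn7s genes included. FPKM is scaled for length and depth, and coverage, a signal of mean read depth, is not scaled for depth. FastQC, MultiQC, Trimmomatic, HISAT2, SAMtools, StringTie and the build GRCm38 (mm10) are named in the submitters' processing notes. Their options, the gene annotation and whether strand was used are not given in the sources used here. The tables hold no read counts, so tests for counts were not applicable and the branch of the design for TPM was followed. The number of reads behind a value is unknown, and no interval for counting error is given.

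TPM was summed per gene ID and analysed as log2(TPM + 1), with a pseudocount of 1, for the 12817 genes that reached 1 TPM in 4 or more libraries. A limma 3.58.1 model (lmFit, contrasts.fit, eBayes with a trend, in R 4.3.3) with a mean for every group took in all 32 libraries and gave 11 comparisons, without a replicate block. P-values were adjusted by Benjamini-Hochberg over all tested genes and called under 0.05, two-sided. The 3 genes below the filter were taken from the same fit without it and from exact permutation tests. Exact tests are also given for Fstl1. All exact tests exchanged libraries of the same age without regard to sex. The fit was tested on simulated data. Counts of libraries above or below the WT mean of their sex are given without their share over all genes, which was not computed. Tables were handled with data.table (1.17.8), Python 3.11.15, pandas 2.3.3 and numpy 2.4.6, and plots drawn with matplotlib 3.10.9.

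The 10 genes, the pathway list and the marker lists were chosen with earlier results of these data known. All 10 genes are described, pathway genes are named where called by genotype at 5 or 25 weeks (Smad and receptor genes that were not called are named beside them), and for Mstn and each called gene the 3 tested genes with the highest Pearson correlation are named. Single marker genes are named as examples, chosen after their values were seen. No pair of libraries held identical values, and the highest correlation between libraries was 0.984. Alternatives covered the pseudocount, the filter, the scaling, FPKM or coverage in place of TPM, the model, a replicate block and each library left out.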

Additional observations from a re-analysis of the deposited data

Results flagged for a closer look

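In each group of 4 libraries, a library was singled out when its gap to the nearest other library took more than the share of the group's range given by Dixon's 95% critical value. Of 80 groups (10 genes in 8 groups) 6 had such a library, and chance alone gives about 1 in 20. Fstl1 gave a pair of them, the fourth WT female at 5 weeks with 39.9 TPM and the first Col6a2-/- male at 25 weeks with 41.2 TPM, both the highest of their group. The fourth WT male at 25 weeks had 2.98 TPM of Fst, while the other 3 had 0.745 to 0.993 TPM. Acvr2a was at 13.9 TPM in the second Col6a2-/- female at 5 weeks, the library that also had the highest Fst. Acvr1b was lowest at 3.67 TPM in the fourth WT female at 25 weeks, and Inhbb was lowest at 0.107 TPM in the third WT male at 5 weeks.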

How the results depend on the processing

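The calls of Mstn, Fstl1 and Acvr2b by genotype at 5 weeks and of Fstl1 at 25 weeks held under every alternative that could be fitted and with each of the 32 libraries left out; with at least 5 TPM required, Acvr2b, Fst and Gdf11 were not in the fit. No called difference reversed its sign. With median-of-ratios scaling, the count of the 10 genes called was 4 at 25 weeks (1 higher, 3 lower), 3 in 5-week females, 4 in 5-week males and 2 in 25-week males. Of 12817 genes 1282, 1776, 1082 and 809 were called in these comparisons, against 603, 1648, 645 and 388 in the fit as reported. Quantile normalization gave 4 at 25 weeks (1 higher, 3 lower), 3 in 5-week females, 3 in 5-week males and 2 with age in WT. Of all genes it called 848, 1602, 1151 and 3457, and the fit as reported called 2536 with age in WT. At 25 weeks 95.0% of called genes were higher in the fit as reported, 58.5% with median-of-ratios scaling and 57.0% with quantile normalization. Rescaling without mitochondrial and Rn7s genes gave 2 in 5-week females and 2 in 5-week males, beside 862 and 1247 of 12777 genes. In 5-week males FPKM and values from coverage, an alternative chosen after seeing the data, each gave 2, and the 5-week libraries alone gave 0. Over all genes these called 616, 675 and 332. With age in Col6a2-/-, no filter gave 2, beside 5523 of 32958 genes. The filter of 5 TPM gave 2 there, beside 2263 of 6573 genes, and 0 for sex, beside 258. The cause of these moves was not tested, other than that genes below 5 TPM were not tested under that filter.

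Leaving out each library in turn gave 3 to 5 called genes at 5 weeks, 1 to 2 at 25 weeks, 1 to 2 in 5-week females, 0 to 2 in 5-week males, 0 in 25-week females, 1 in 25-week males, 0 for both interaction terms, 1 to 2 with age in WT, 2 to 5 with age in Col6a2-/-, and 1 for sex. Over all genes the calls moved too. Without the second Col6a2-/- female of 5 weeks, 15.2% were called higher and 2.72% lower by genotype at 5 weeks, in place of 23.2% and 2.14%. The shares for the other libraries left out are not given, so these ranges alone do not show how stable the 10 genes were. Over 112 pairs of same-numbered libraries, the correlation of deviations from the group means ran from -0.34 to 0.35, with a median of 0.03. It was over 0.1 in 35 pairs. Between WT males at 5 weeks and Col6a2-/- males at 25 weeks it was 0.349, 0.121, 0.262 and 0.274. Between WT and Col6a2-/- males at 5 weeks it was 0.201, 0.232, 0.12 and 0.0742. Between Col6a2-/- males at 5 and at 25 weeks it was 0.103, 0.263, 0.339 and 0.0502. WT females at 5 weeks and WT males at 25 weeks went the other way, with -0.133, -0.047, -0.15 and -0.0442. Same-numbered libraries thus did not deviate together as a rule, and whether the numbers pair mice within some groups was not tested. With the replicate block 4 of the 10 genes were called at 5 weeks and 1 at 25 weeks, as without it, and over all genes 3293 and 658 in place of 3253 and 603. In 5-week males the block fit called 1 of the 10 genes, lower, and 695 of all genes in place of 645. The libraries hold no counts, so precision rests on 4 mice per group.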
